A study of Mus musculus with 4 samples.

Results

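Promoter peaks of long intergenic noncoding RNA (lincRNA) genes were taken from the open chromatin of sorted mouse heart nuclei. A peak belonged to the set if its summit, the base of strongest signal, lay within 1000 bp of the 5′ end of a gene of type lincRNA. Its summit also had to be more than 2000 bp from the start of every protein-coding transcript. Of 78912 peaks in GFP- (non-EC) nuclei 880 qualified, and of 65008 peaks in GFP+ (EC) nuclei 722 qualified. They lay at 921 of the 5305 lincRNA genes annotated on chromosomes 1 to 19 and X, or 17.4%. The protein-coding limit had removed 304 of 1184 GFP- peaks and 306 of 1028 GFP+ peaks whose summit was close enough to a lincRNA start.

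Nuclei came from whole hearts of male NuTRAP/Cdh5-Cre mice on a C57BL/6 background, 8 to 12 weeks of age. The Cdh5-Cre transgene switches on the NuTRAP reporter, which tags ribosomes with GFP. This happens in cells that express, or descend from cells that expressed, the endothelial cadherin gene *Cdh5*. Both GFP+ and GFP- nuclei carried both transgenes, and flow cytometry separated them before ATAC-Seq. The labels gave 2 replicates for each population, 100 to 50000 nuclei for each reaction and 2.5 µL of the transposase Tn5 for every 50000 nuclei. A single list of peaks for each population was called by the authors from both replicates together, so no value below has a replicate error and no difference between populations could be tested. Intervals in parentheses after a share are 95% Wilson intervals and cover counting error only, and read depth was not analysed here.

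Each peak carried an area, a value deposited with it by the peak caller that is not a read count. Its area rank is its percentile among all peaks of the same list. Rank 0 stands for no peak. Because area grows with length, a rank combines how wide and how high a peak is. As a check of the labels, the starts of all 8 endothelial marker genes had a peak in GFP+ nuclei (median rank 76.1) and 5 of 8 had one in GFP- nuclei (median 33.1). The fibroblast marker genes had a peak at 6 of 7 starts in GFP- nuclei and at 1 of 7 in GFP+ nuclei. All 5 cardiomyocyte genes, *Myh6* and *Tnnt2* among them, had a start peak in both populations, with ranks of 86.0 to 100.0 even in GFP+ nuclei. Pericyte and smooth muscle genes had a start peak in 6 of 6 cases in GFP- and 3 of 6 in GFP+ nuclei, macrophage and lymphocyte genes in 1 of 6 in both, and glial genes in none of 3. The part of cell mixture in the lincRNA values below was not tested. In bulk nuclei, fewer cells with an open site and a weaker opening in each cell cannot be told apart.

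LincRNAs are long transcripts that encode no known protein and lie between protein-coding genes. Some stay in the nucleus and organise bodies such as paraspeckles and nuclear speckles, some serve as precursors of microRNAs or small nucleolar RNAs, and for others the act of transcription affects a neighbouring gene. Their promoters are in general more restricted to particular cell types than those of protein-coding genes and less often lie in CpG islands, stretches rich in the CG dinucleotide.

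The DNA below the summits is shown for high-ranking loci of each class, 3 found only in GFP+ nuclei, 3 found only in GFP- nuclei and 1 found in both, as examples of the DNA under a large peak of each class. They were picked from the highest-ranked genes and do not stand for all members of a class. Each window is 200 bp of mm10 (GRCm38.p6, RefSeq) around the summit, printed 5′ to 3′ on the strand of the lincRNA, with capitals marking matches to the motif words described further down.
4930555A03Rik (GFP+ only, chr3:151294083-151294282, plus strand): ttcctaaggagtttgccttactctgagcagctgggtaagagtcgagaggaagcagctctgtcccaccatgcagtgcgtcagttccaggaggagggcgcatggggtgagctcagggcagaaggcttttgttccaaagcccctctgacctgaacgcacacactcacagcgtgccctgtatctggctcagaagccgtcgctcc
Gm11496 (GFP+ only, chr11:88996576-88996775, minus strand): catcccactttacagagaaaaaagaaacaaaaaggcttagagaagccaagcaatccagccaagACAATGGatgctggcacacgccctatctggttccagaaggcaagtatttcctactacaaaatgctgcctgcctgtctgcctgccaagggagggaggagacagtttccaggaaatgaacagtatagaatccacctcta
Gm11682 (GFP+ only, chr11:110544568-110544767, plus strand): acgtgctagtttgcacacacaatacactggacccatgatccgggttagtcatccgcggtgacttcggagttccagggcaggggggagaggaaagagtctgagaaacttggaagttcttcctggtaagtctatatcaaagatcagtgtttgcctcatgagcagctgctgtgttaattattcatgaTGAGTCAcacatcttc
Gm47972 (GFP- only, chr10:126962318-126962517, plus strand): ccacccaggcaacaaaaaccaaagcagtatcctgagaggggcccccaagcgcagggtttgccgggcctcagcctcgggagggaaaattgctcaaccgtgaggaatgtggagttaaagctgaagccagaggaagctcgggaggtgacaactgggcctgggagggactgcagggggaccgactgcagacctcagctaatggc
Gm48022 (GFP- only, chr10:70814728-70814927, plus strand): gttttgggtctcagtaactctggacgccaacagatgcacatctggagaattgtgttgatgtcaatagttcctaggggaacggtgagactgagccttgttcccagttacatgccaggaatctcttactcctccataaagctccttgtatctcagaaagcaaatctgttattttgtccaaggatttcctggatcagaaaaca
3930402G23Rik (GFP- only, chr8:10928375-10928574, minus strand): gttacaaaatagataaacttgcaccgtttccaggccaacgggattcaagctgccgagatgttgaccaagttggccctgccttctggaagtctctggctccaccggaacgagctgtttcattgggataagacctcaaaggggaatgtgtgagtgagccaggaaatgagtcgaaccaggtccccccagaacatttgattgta
Gm26887 (shared, chr8:84198427-84198626, minus strand): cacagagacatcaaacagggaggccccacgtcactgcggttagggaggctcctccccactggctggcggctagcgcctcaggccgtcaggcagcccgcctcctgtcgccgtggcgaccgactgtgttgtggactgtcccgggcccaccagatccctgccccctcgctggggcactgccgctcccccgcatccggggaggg
The *Gm11496* window held a SOX word and the *Gm11682* window an AP-1 word. The *Gm26887* window had the highest GC content of the set, 71.0%, with 15 CG dinucleotides. The remaining windows held none of the words.

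*Neat1*, the scaffold of paraspeckles, had the largest peak by area of the whole genome in both populations. On chromosome 19, its GFP- peak ran over 24478 bp and its GFP+ peak over 15669 bp. Peaks covered 99.4% of the *Neat1* gene body (chr19:5824708-5845478, minus strand) in GFP- and 93.5% in GFP+ nuclei. The GFP+ peak is counted through its overlap, since its own summit was not near the 5′ end. *Malat1*, a nuclear speckle RNA that lies next to *Neat1*, ranked 98.6 in GFP- and 98.3 in GFP+ nuclei. Peaks covered 86.6% of the *Malat1* gene body in GFP- and 52.3% in GFP+ nuclei. For both genes this coverage counts all peaks over the gene body, not the promoter peak alone. The *Malat1* promoter peak itself, 2450 bp long in GFP- and 2780 bp in GFP+ nuclei, reached only the 5′ part of the 6983 bp gene. The next genes were chosen as shared lincRNA genes of the highest mean rank, so sharing at nearly equal rank follows from the choice. They were *2410080I02Rik* (100.0 in GFP-, 99.9 in GFP+) 6326 bp from the start of the Kruppel-like factor gene *Klf9*, *Gm26887* (100.0 and 99.9), *4932412D23Rik* (99.9 and 99.9) whose nearest protein-coding gene was *Zbtb20*, and *6720427I07Rik* (99.7 and 99.7).

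*6720427I07Rik* and *Mir17hg* are hosts of microRNA clusters, and their mature microRNAs are shown with that of another highly ranked host, *E130102H24Rik*, since the seed decides which messages a microRNA recognises. The sequences are the RefSeq mature microRNAs of GRCm38.p6 that lie inside the host gene on its strand, with the seed (bases 2 to 8) in capitals.
let-7a-5p: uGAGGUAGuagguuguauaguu
let-7f-5p: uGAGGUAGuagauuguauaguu
let-7d-5p: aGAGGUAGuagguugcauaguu
miR-17-5p: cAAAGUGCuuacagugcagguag
miR-20a-5p: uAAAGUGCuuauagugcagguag
miR-18a-5p: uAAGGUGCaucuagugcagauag
miR-19a-3p: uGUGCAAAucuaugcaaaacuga
miR-19b-3p: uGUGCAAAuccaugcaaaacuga
miR-92a-3p: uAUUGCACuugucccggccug
miR-101a-3p: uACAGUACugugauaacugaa
The let-7 microRNAs of *6720427I07Rik* share the seed GAGGUAG. In *Mir17hg*, the miR-17-92 cluster known for its role in cell growth and heart development, miR-17 and miR-20a share AAAGUGC and miR-19a and miR-19b share GUGCAAA.

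Of the 921 genes, 29 contained a small RNA gene on their own strand, and 17 of these contained a microRNA, recognised by Mir in its gene symbol. Among the 17 microRNA hosts, 10 had a shared promoter peak, 7 a peak found only in GFP- nuclei and 0 a peak found only in GFP+ nuclei, beside 632, 214 and 72 of all 921 genes. Of all 72 genes with a peak only in GFP+ nuclei, 0 hosted any small RNA, which allows a share of up to 4.17% when the limit is set at 3 counts, beside 29 of all 921. Of the 10 shared hosts, 9 ranked above 75 in both lists, beside median ranks of 68.3 in GFP- and 63.7 in GFP+ nuclei over all 632 shared genes. *Mir17hg* ranked 99.1 in GFP- and 99.5 in GFP+ nuclei, *Gm20732*, host of miR-30d, ranked 99.3 in both, and *E130102H24Rik*, host of miR-101a, ranked 99.0 and 98.5. *Gm49317*, host of miR-100, miR-125b-1 and let-7a-2, ranked 89.1 and 79.0. *Mir155hg*, host of the immune and vascular microRNA miR-155, ranked 76.2 and 76.1. Of the 10 shared hosts, 9 were within 10 points in both lists, beside 382 of all 632 shared genes. Hosts were not compared with other genes of the same rank. The hosts found only in GFP- nuclei had smaller peaks, with ranks from 2.31 to 60.6. They included *Mir142hg*, host of a microRNA of blood cells, at rank 2.31, *Meg3*, the imprinted RNA whose locus contains miR-770, at 7.06, *Ftx* at 11.5 and *Mir670hg* at 59.1.

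**Figure D1:**
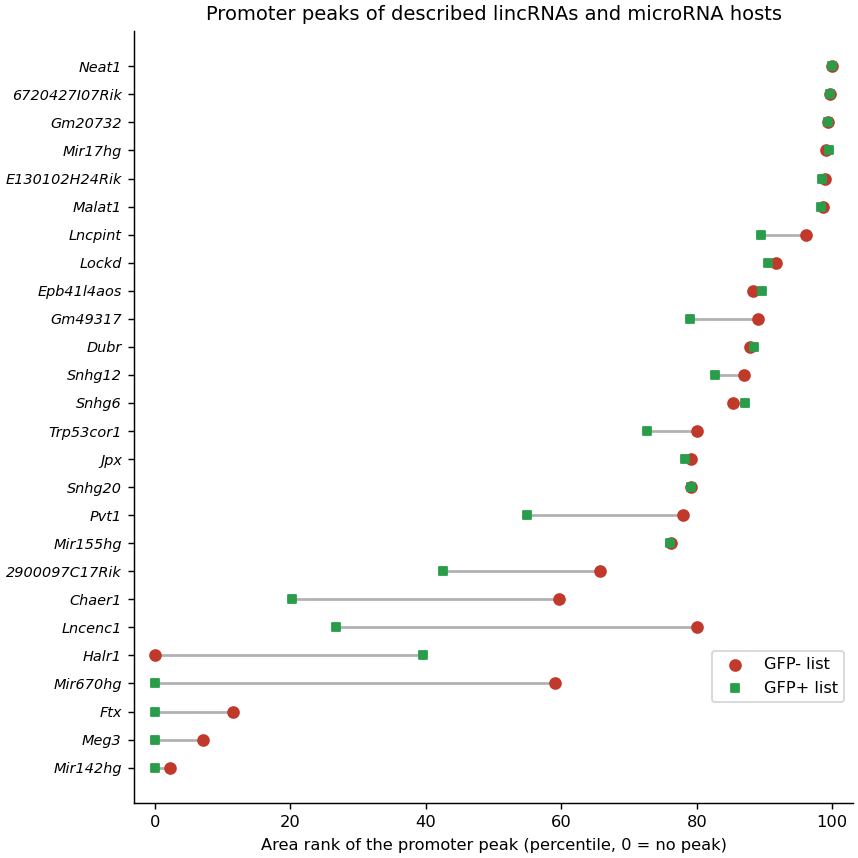
Area rank (percentile within each list, 0 = no peak) of the promoter peak of described lincRNAs and microRNA hosts, with a circle for the GFP- list, a square for the GFP+ list and a grey line for the difference. Most genes lie within a few points in both lists, whereas *Lncenc1*, *Chaer1*, *Pvt1* and *2900097C17Rik* rank lower in GFP+ nuclei and *Halr1* has a peak only there. *Mir670hg*, *Ftx*, *Meg3* and *Mir142hg* have a peak only in GFP- nuclei.

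Of the 12 hosts of small RNAs other than microRNAs, 11 had a shared peak and 1 a peak only in GFP- nuclei. Among the 11, 9 were within 10 points in both lists, while *A830008E24Rik* (91.2 in GFP-, 52.5 in GFP+) and *A930003A15Rik* (71.7 and 27.2), named after their values were seen, were more than 20 points lower in GFP+ nuclei. Several hosts carry small nucleolar RNAs, which guide the chemical modification of ribosomal RNA. *Snhg6* ranked 85.4 in GFP- and 87.1 in GFP+ nuclei, *Snhg12* ranked 87.0 and 82.7, and *Epb41l4aos* ranked 88.3 and 89.7. *Snhg20*, at 79.1 and 79.1, contains a microRNA gene and was counted with the microRNA hosts above. *Lockd*, 8579 bp from the start of the cell cycle inhibitor gene *Cdkn1b*, ranked 91.7 and 90.5, and *Dubr*, a lincRNA described in muscle differentiation, ranked 87.9 and 88.5. *Lncpint* ranked 96.1 in GFP- and 89.5 in GFP+ nuclei. *Trp53cor1*, the p53-induced lincRNA-p21 11800 bp from the start of *Cdkn1a*, ranked 80.0 and 72.7. *Pvt1*, 50564 bp from the start of *Myc*, showed a larger gap, with 907 bp at rank 77.9 in GFP- nuclei and 640 bp at rank 54.9 in GFP+ nuclei. *2900097C17Rik*, the mouse *Norad* gene of genome stability, ranked 65.7 and 42.5. *Jpx*, an activator of X inactivation, ranked 79.2 and 78.3.

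The remaining genes with a symbol of their own included both large and small differences. *Chaer1* (chr5:77138471-77140252, minus strand), a regulator of cardiac hypertrophy whose nearest protein-coding gene is the cardiac homeobox gene *Hopx*, ranked 59.6 in GFP- and 20.2 in GFP+ nuclei, and its peak was 1088 bp long in the former and 382 bp in the latter. *Lncenc1*, known from embryonic stem cells, ranked 80.0 in GFP- nuclei over 1732 bp and 26.8 in GFP+ nuclei over 309 bp. Ranked by the summit p-value instead of the area, its difference went from -53.3 to -29.9. *AV205837*, 10427 bp from the start of *Apod*, ranked 51.5 and 13.6. *Halr1* had a peak only in GFP+ nuclei, at rank 39.6. *Tbx3os2* (36.9 and 36.2), *Platr26* (68.0 and 64.9), *Smkr-ps* (83.8 and 79.0), *Rncr4* (11.1 and 18.9) and *Tmem250-ps* (97.0 and 96.5) were within 10 points in both lists. *AY512915* had a peak only in GFP- nuclei, at rank 38.2. *Lsmem2* (88.7 and 87.8) and *Zfp469* (36.6 and 20.5) were lincRNA genes in the annotation used but were typed as protein-coding in RefSeq, which gave a record for 516 of the 921 symbols, of which 498 were typed lncRNA and 12 protein-coding.

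From a list of 67 well-known long noncoding RNA genes, 18 were among the 921. For the others, 31 had another gene type in the annotation, 12 had no summit in the window in either list, 2 (*Snhg10* and *Snhg18*) had a protein-coding start too close, and 4 had no record. Genes without a summit included *H19*, *Miat*, *Mirg* and *Xist*. Genes of another type, such as the cardiac RNA *Mhrt* antisense to the myosin genes and *Mir22hg*, ranked 100.0 in both lists and do not enter any count here.

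The lincRNA promoters were shared between the populations to about the extent of peaks in general and much less often than protein-coding promoters. Of the GFP- lincRNA promoter peaks, 255 of 880, or 29.0% (26.1 to 32.1%), overlapped no GFP+ peak, beside 30.3% of all GFP- peaks. Of the GFP+ lincRNA promoter peaks, 82 of 722, or 11.4% (9.24 to 13.9%), overlapped no GFP- peak, beside 13.4% of all GFP+ peaks. Both shares were thus near the background, and neither is a result about lincRNA promoters as such. When a partner had to overlap by 50% of both peaks, the unshared share was 39.3% (36.1 to 42.6%) of GFP- and 26.2% (23.1 to 29.5%) of GFP+ lincRNA promoter peaks, beside 39.3% and 26.3% of all peaks. Among peaks with a summit at a protein-coding start, only 9.28% (8.82 to 9.76%) of GFP- and 3.42% (3.13 to 3.74%) of GFP+ peaks were unshared. Among distal peaks, more than 1000 bp from the 5′ end of any gene record, 34.7% and 15.9% were unshared. Starts of other transcripts were not barred from this group, so some distal peaks also counted as protein-coding promoter peaks. The lincRNA intervals lay above those of protein-coding promoters and below those of distal peaks in both lists.

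**Figure D2:**
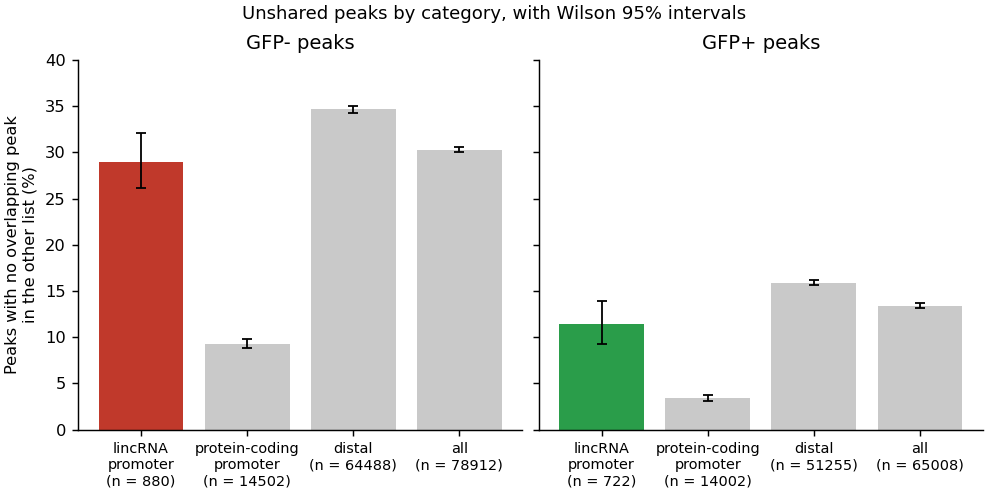
Percentage of peaks with no overlapping peak in the other list, for lincRNA promoters (coloured), protein-coding promoters, distal peaks and all peaks, with Wilson 95% intervals as error bars. LincRNA promoters stand at 29.0% in the GFP- list and 11.4% in the GFP+ list, close to all peaks and above protein-coding promoters at 9.28% and 3.42%.

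Sharing depended on peak size. In GFP- nuclei, 60.5% of lincRNA promoter peaks in the lowest area quartile of the list were unshared, then 41.3%, 19.8% and 5.43% in the highest. In GFP+ nuclei the share was 34.0% in the lowest quartile, then 16 of 160 peaks, 6.95% and, in the highest quartile, 0 of 219, which allows a share of up to 1.37% with the same limit of 3 counts. All peaks gave 59.7%, 34.5%, 21.7% and 5.40% in GFP- and 34.5%, 13.3%, 5.70% and 0.240% in GFP+ nuclei. At matched size, lincRNA promoters were therefore close to the list as a whole, except in the GFP- second quartile, where all peaks at 34.5% lay at the lower bound of the lincRNA interval (34.5 to 48.4%). Protein-coding promoters of the highest quartile were unshared in 0.614% of GFP- peaks, below the lincRNA interval there (3.26 to 8.90%). LincRNA promoter peaks were of middle size, with a median rank of 56.4 in GFP- and 56.7 in GFP+ nuclei and a median length of 524 and 498 bp. Protein-coding promoter peaks had median ranks of 87.2 and 85.8 and lengths of 1103 and 1033 bp, and distal peaks had ranks of 43.8 and 42.8 and lengths of 415 and 400 bp.

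By gene, 632 of the 921 lincRNA genes had a shared promoter peak, 214 a peak only in GFP- nuclei and 72 a peak only in GFP+ nuclei. For 3 genes, *Gm30085*, *Gm11840* and *Gm33926*, both lists had a peak near the start but the peaks did not overlap. A peak close to several lincRNA starts counted for each, which applied to 16 GFP- and 22 GFP+ peaks. The genes found only in GFP+ nuclei had a median rank of 16.4 there and ranged from 0.0692 to 74.2. Those found only in GFP- nuclei had a median rank of 30.4 and ranged from 0.0431 to 91.9.

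**Figure D3:**
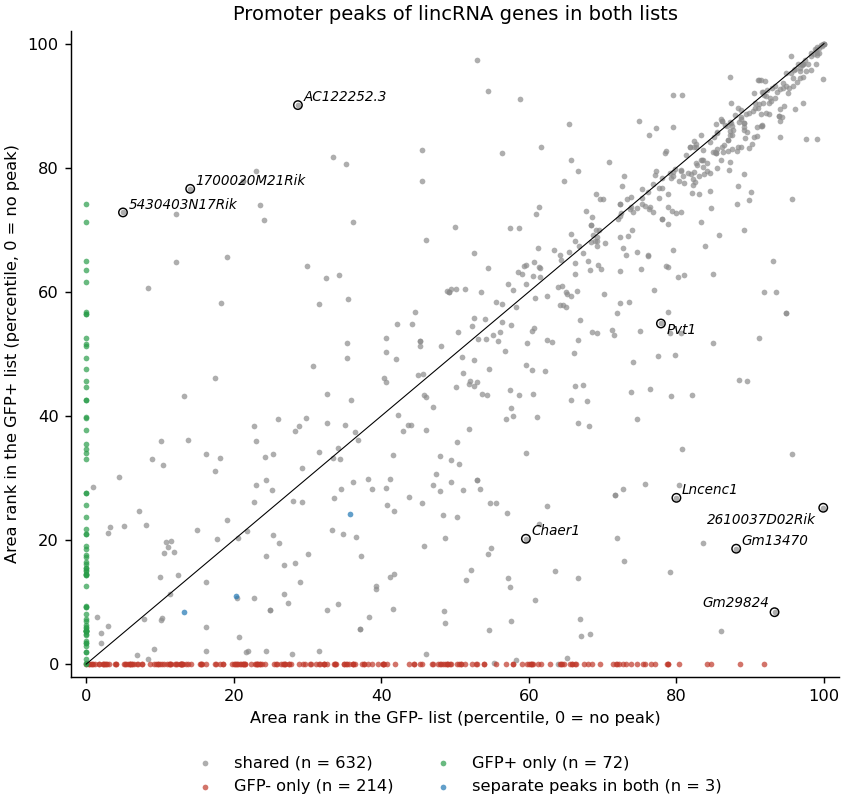
Area rank of the promoter peak in the GFP- list (horizontal axis) and in the GFP+ list (vertical axis) for 921 lincRNA genes, coloured by class, with rank 0 for no peak and the diagonal marking equal rank. Many shared genes of high rank lie near the diagonal, genes of a single list reach 91.9 in GFP- but no more than 74.2 in GFP+, and the labelled genes are far from the diagonal.

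The highest-ranked lincRNA promoters found only in GFP+ nuclei are described with the nearest protein-coding gene. A gene called near or beside below is the nearest protein-coding gene at any distance, up to 1720622 bp over the 921 genes. *AC163347.1*, whose nearest protein-coding gene is *Zfp608*, ranked 74.2 by area and 50.9 by the summit p-value. *4930555A03Rik* (chr3:151294126-151296641, plus strand) ranked 71.3 with a peak of 758 bp, and its nearest protein-coding start, 143761 bp away, was that of *Adgrl4*, an endothelial adhesion receptor. The start of *Adgrl4* itself had no GFP- peak and ranked 75.2 in GFP+ nuclei, so gene and lincRNA were both found in GFP+ nuclei alone. *Gm11496*, 2832 bp from the start of *Trim25*, ranked 65.0 and *Gm11682*, nearest to *Map2k6*, ranked 63.6. *Gm4278* near *Lrch1* ranked 61.6. *Gm33172*, 288866 bp from the start of the kinase gene *Plk2*, ranked 56.7, and *Gm49756* and *Gm49757*, which shared a peak, ranked 56.5. The starts of *Trim25*, *Map2k6*, *Lrch1*, *Plk2* and *Zfp608* had peaks of nearly equal rank in both lists, for example 86.6 and 88.3 for *Trim25*. *Gm47680* ranked 39.8 and was nearest to *Fli1*, an ETS factor of endothelial and blood cells whose own start ranked 88.1 in GFP- and 95.1 in GFP+ nuclei. *Gm34574* near *Dusp6* ranked 37.8 and *Gm17250*, inside the integrin gene *Itga6*, ranked 5.26.

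The lincRNA promoters found only in GFP- nuclei included larger peaks. *Gm47972* (chr10:126962323-126962750, plus strand) ranked 91.9, and its peak of 1907 bp covered the whole gene, 16394 bp from the start of the phosphatase gene *Ctdsp2*. *Gm48022*, 157880 bp from the start of *Phyhipl*, ranked 88.6. *3930402G23Rik* near the insulin receptor substrate gene *Irs2* ranked 84.7, and *6430584L05Rik* near *Ghrhr* ranked 84.2. *Gm12524* near *Gpr61* ranked 80.3, *Gm20083*, 189765 bp from the start of *Rgma*, ranked 78.9 and *Gm36169* near *Mis18a* ranked 78.7. *Phyhipl*, *Ghrhr* and *Gpr61* had no start peak in either list, while *Ctdsp2* (99.5 and 99.4) and *Irs2* (99.9 and 99.6) had large start peaks in both. *Gm48276* (chr10:76726583-76730273, minus strand) ranked 78.9 and lay 4105 bp from the start of the collagen VI gene *Col6a1*, on the same strand. *Col6a1*, a matrix gene of fibroblasts, had a start peak of rank 75.7 in GFP- and none in GFP+ nuclei, and a further lincRNA nearest to it, *Gm35608*, was also found only in GFP- nuclei, at rank 21.2.

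Where both lists had the promoter, GFP+ ranks were slightly lower, to about the same extent as over all peaks. The lists hold 78912 GFP- and 65008 GFP+ peaks, so the same position from the top gives a lower percentile in the GFP+ list. *Lockd*, for example, was at position 6512 in GFP- and 6164 in GFP+ but ranked 91.7 and 90.5. The part of list length in the differences below was not tested. The median difference over 633 shared lincRNA promoter regions, GFP+ minus GFP-, was -2.30 (95% interval of the median -2.88 to -1.46), beside -1.80 over all 53996 shared regions, -0.885 over protein-coding promoters and -2.57 over distal regions. Of the 633 regions, 36, or 5.69% (4.14 to 7.77%), ranked more than 20 points higher in GFP+ nuclei, beside 5.07% of all shared regions. Another 88, or 13.9% (11.4 to 16.8%), ranked more than 20 points lower, beside 12.1% of all shared regions. Both shares were near the background, and both were larger than those of protein-coding promoters, 1.76% and 5.84%. Counted by gene, 280 of 632, or 44.3%, were within 5 points.

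The largest differences toward GFP+ nuclei exceeded 50 points. *AC122252.3* (chr17:26449388-26464157, minus strand), nearest to the phosphatase gene *Dusp1*, ranked 28.7 with a peak of 427 bp in GFP- and 90.1 with a peak of 2716 bp in GFP+ nuclei. Over the whole interval of the GFP+ peak the highest-ranked GFP- peak was at 63.4, a smaller gap than between the overlapping promoter peaks. *5430403N17Rik*, near the claudin gene *Cldn23*, ranked 4.99 and 72.8. *1700020M21Rik*, 13964 bp from the start of the beta-catenin gene *Ctnnb1* and on the opposite strand, ranked 14.1 with 537 bp in GFP- and 76.6 with 1126 bp in GFP+ nuclei, while the *Ctnnb1* start ranked 96.0 and 95.3. *Gm47752* near *Zfp36l1* ranked 12.2 and 72.5, and *Gm36633* and *1700011C11Rik*, which shared a peak, ranked 21.3 and 77.8.

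Among the largest differences toward GFP- nuclei, 2 depended on where peaks were divided. *2610037D02Rik*, 3023 bp from the start of *Arid2*, ranked 99.9 in GFP- and 25.2 in GFP+ nuclei. Its GFP- peak of 5034 bp reached over the *Arid2* start, and over the same interval the GFP+ list also held a peak of rank 99.9, so the populations did not differ there once the interval was joined. *Gm29824* (chr9:24776467-24806024, plus strand), 2164 bp from the start of the cardiac T-box gene *Tbx20* and on the opposite strand, ranked 93.3 with 2506 bp in GFP- and 8.37 with 456 bp in GFP+ nuclei. Over the joined interval the GFP+ value was 79.9, and the *Tbx20* start ranked 97.4 and 92.4. The following genes kept their difference over the joined interval. *Gm36495* near *E2f6* ranked 86.0 and 5.33, and *Gm34256* near *Dlg1* ranked 79.1 and 14.9. *Gm13470*, 1325315 bp from the start of its nearest gene *Zeb2*, ranked 88.1 with 2129 bp and 18.6 with 651 bp. Of the 39 genes more than 20 points higher and the 97 more than 20 points lower in GFP+ nuclei, 39 and 93 were so over the joined interval as well.

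The nearest protein-coding gene lay at a median distance of 45743 bp, closer for shared lincRNAs (38976 bp) than for those found only in GFP- (60868 bp) or only in GFP+ nuclei (75966 bp). The starts of these neighbours mostly had close ranks in both lists. Of the 66 neighbours of lincRNAs found only in GFP+ nuclei, 55 had a peak within 250 bp of a start, and their median rank difference, GFP+ minus GFP-, was -0.246, beside -0.813 over all 13386 protein-coding genes with a start peak. Among them, 2, or 3.64%, were more than 20 points higher in GFP+ nuclei, *Adgrl4* among them, beside 1.95% of all these genes. *Sox8* (79.4 and 40.6) was more than 20 points lower, 1.82% beside 7.31%. Of the 198 neighbours of lincRNAs found only in GFP- nuclei, 156 had a start peak, with a median difference of -0.820, close to that over all genes. Of these, 17, or 10.9%, were more than 20 points lower in GFP+ nuclei, beside the 7.31% over all genes. They included *Osr1* (77.8 and 13.0), *Smoc2* (84.6 and 31.0), *Sod3* (86.1 and 55.9), *Dpt* (51.5 and none) and *Ccl2* (77.6 and 43.8). A single neighbour, *Zfp366*, or 0.641%, was more than 20 points higher in GFP+ nuclei, with no GFP- peak and rank 54.3. *Sox8*, *Ccl2* and *Zfp366* were named after their values were seen.

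**Figure D4:**
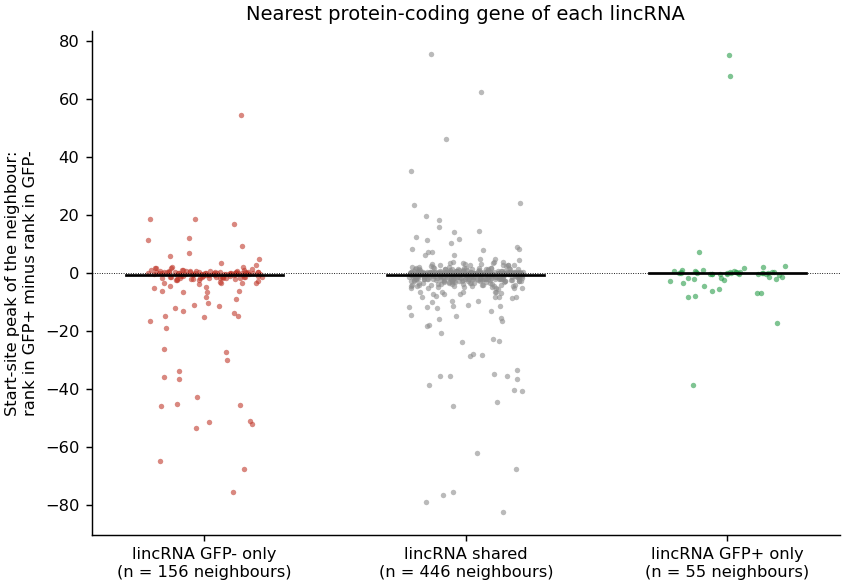
Difference in area rank (GFP+ minus GFP-) of the start-site peak of the nearest protein-coding gene, 1 point for each neighbour with a start peak in either list, by the class of its lincRNA, with black bars at the medians. The medians are -0.820 for lincRNAs found only in GFP- nuclei and -0.246 for those found only in GFP+ nuclei, and most points lie close to 0.

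Gene sheets for endothelial cells, fibroblasts and cardiomyocytes came from the study's supplement on unspliced transcripts, not from its marker lists. They held 179, 242 and 111 genes and contained the neighbours of 35, 20 and 5 of the 921 lincRNA genes. No limit was set on the distance to the neighbour. Beside fibroblast genes, 9 of 20 lincRNA promoters were found only in GFP- nuclei, 1 (*Gm11468* near *Sulf2*, rank 1.89) only in GFP+ nuclei and 10 in both, with a median difference of -14.7 over the 10 and 9 of them lower in GFP+ nuclei. The 9 found only in GFP- nuclei included *AC171111.1* near *Smoc2* at rank 48.4 and *Gm43179* near *Sod3* at 60.0. *A530065N20Rik*, 147230 bp from the *Gas1* start, at 31.7 and *Gm46323*, 198678 bp from the *Osr1* start, at 3.87 were also among them. The 10 in both included *Gm29824* near *Tbx20*, whose difference was -84.9, or -13.4 over the joined interval. The median of the 10 was not recomputed with the joined value. Over all 632 shared genes the median was -2.37, with 419 lower and 212 higher in GFP+ nuclei, and of all 921 genes 214 were found only in GFP- and 72 only in GFP+ nuclei. Beside endothelial genes, 4 of 35 were found only in GFP+ nuclei, 8 only in GFP- nuclei and 23 in both, with a median of 1.67 and 13 of 23 higher in GFP+ nuclei. Those found only in GFP- nuclei ranked between 2.23 (*Gm33045* near *Plk2*) and 49.4 (*Gm44622* near *Arglu1*). The others were *B530045E10Rik* (37.6) and *Gm34983* (9.80) with the neighbour *Dusp6*, *Gm29591* (26.8) with *Cav1* and *Gm13848* (15.5) with *Podxl*. *E130202H07Rik* (10.6) had the neighbour *Tsc22d1*, and *Gm29323* (6.43) had *Sgk1*. Shared examples that ranked higher in GFP+ nuclei were chosen after their values were seen. *Gm19590* near the VEGF receptor gene *Kdr* ranked 58.8 in GFP- and 91.1 in GFP+ nuclei. *Gm48616* near *Meox2* (45.5 and 82.9) and *D830026I12Rik* near *Cav2* (65.5 and 87.0) went the same way. Of the 23, 10 ranked lower in GFP+ nuclei, such as *Trp53cor1* near *Cdkn1a* (80.0 and 72.7) and *Platr26* near *Itga6* (68.0 and 64.9). Beside cardiomyocyte genes, lincRNAs near *Pln* (76.8 and 72.9), *Myocd* (88.2 and 82.7) and *Ankrd1* (57.6 and 54.7) were shared at close ranks, and those near *Hspb8* (17.6) and *Mb* (9.22) were found only in GFP- nuclei. The groups are small, and several lincRNAs shared a neighbour, such as *Dusp6* and *Ctnnb1*.

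LincRNA promoters were poorer in CG dinucleotides than protein-coding promoters. The ratio of observed to expected CG in 300 bp around the summit had a median of 0.322 in GFP- and 0.344 in GFP+ lincRNA promoter peaks, beside 0.770 and 0.778 at protein-coding promoters and 0.225 and 0.229 at distal peaks. A ratio of 0.6 or more, typical of CpG islands, was found in 16.8% and 19.3% of lincRNA promoter peaks and in 69.9% and 71.5% of protein-coding ones. Sharing went with this ratio. Of the CG-rich lincRNA promoter peaks, 12 of 148, or 8.11% (4.70 to 13.6%), were unshared in GFP- and 5 of 139, or 3.60% (1.55 to 8.14%), in GFP+ nuclei. Of those below 0.6, 33.2% (29.9 to 36.7%) and 13.2% (10.7 to 16.2%) were unshared. CG-rich peaks were also larger, with a median rank of 83.3 against 51.2 in GFP- nuclei. Protein-coding promoters showed the same order, with 3.59% of CG-rich and 22.5% of other GFP- peaks unshared.

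Summits lay less tightly at lincRNA starts than at protein-coding starts. The highest-ranked summit was within 100 bp of the 5′ end for 291 of 921 lincRNA genes, or 31.6% (28.7 to 34.7%), and for 59.0% (58.2 to 59.9%) of protein-coding genes with a summit in the same window. The median distance was 228 bp and 75.0 bp. The summit was upstream in 56.9% of lincRNA and 57.9% of protein-coding genes. Among classes, 32.0% of shared, 31.3% of GFP- only and 30.6% of GFP+ only genes had the summit within 100 bp. At the limits of the rule, the last GFP- summit inside was 997 bp away (rank 64.5) and the first outside 1001 bp (rank 82.8), and the corresponding GFP+ summits were at 995 bp (36.8) and 1001 bp (79.2). The peaks nearest to a protein-coding start were 2169 bp away in GFP- (rank 89.2) and 2177 bp in GFP+ nuclei (86.1), and those just barred were 1979 bp (81.6) and 1992 bp (52.9) away.

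**Figure D5:**
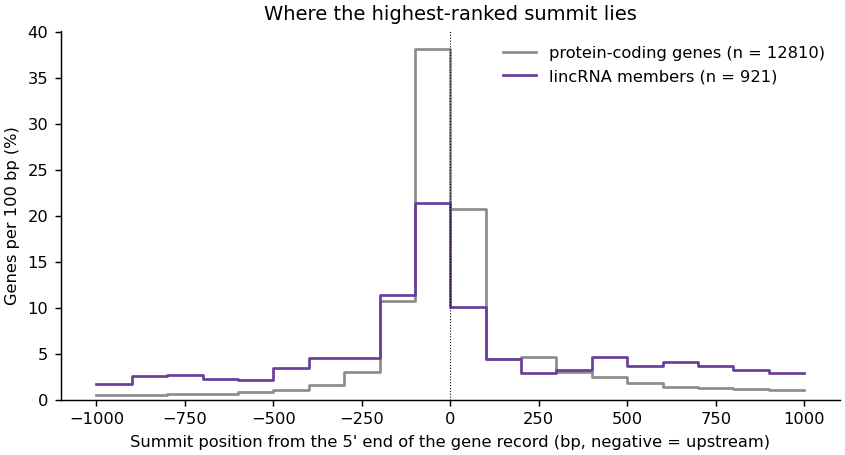
Position of the highest-ranked summit relative to the 5′ end of the gene in bins of 100 bp (negative = upstream), as a percentage of 921 lincRNA and 12810 protein-coding genes. Both curves peak just upstream of the start, and the lincRNA curve is lower and broader, with 31.6% of summits within 100 bp against 59.0%.

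Short motif words were searched on both strands in 300 bp around each summit. The GC box bound by Sp factors was searched as GGGCGG, and the AP-1 site of Fos and Jun proteins as TGANTCA. ETS factors, which include the endothelial factors Erg and Fli1, were represented by CAGGAAGT together with CCGGAAGT. SOX factors were represented by CCATTGT, and the E-box of the fibroblast factor TCF21 by AACAGCTG. The cardiac GATA factors were searched as AGATAAG, and the MEF2, CRE and NFI motifs were counted too, and matches of different words could overlap. A GC box was found in 20.8% of GFP- and 24.1% of GFP+ lincRNA promoter peaks, beside 64.1% and 64.6% of protein-coding promoters and 19.9% and 22.4% of all peaks. The AP-1 word was found in 55 of 255, or 21.6%, of lincRNA promoter peaks found only in GFP- nuclei and in 12.5% (10.1 to 15.3%) of those shared. Among all GFP- peaks it was found in 12.7%, and among all unshared GFP- peaks in 4312 of 23923. In lincRNA promoter peaks found only in GFP+ nuclei, the SOX word was in 7 of 82, or 8.54% (4.20 to 16.6%), beside 7.62% of all unshared and 3.98% of all GFP+ peaks. The ETS word was in 8.54% of these 82, beside 7.87% and 6.01%. The TCF21 word was in 5.88% (3.60 to 9.48%) of GFP- only lincRNA promoter peaks, beside 6.40% of all unshared GFP- peaks. In the 82 GFP+ only peaks it was in 6, or 7.32% (3.40 to 15.1%), beside 2.97% of all unshared GFP+ peaks, and a GC box was in 15.9% (9.51 to 25.3%), beside 9.24%. A GC box was in 11.8% (8.37 to 16.3%) of GFP- only lincRNA promoter peaks, beside 9.15%. In GFP+ nuclei both intervals lay above the share of all unshared peaks, and these differences were not tested. A word match is a description of sequence and no evidence of binding. CRE and NFI words were in 1.25% and 0.227% of GFP- lincRNA promoter peaks.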

How the data were processed

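ATAC-Seq was performed on GFP+ and GFP- heart nuclei, with 2 replicates of each. Per the study's methods and the labels, trimming used fastp, mapping to mm10 used bowtie2 (2.3.5.1 in the labels) and filtering used samtools and Picard, which took out duplicates. After downsampling, Genrich in its ATAC mode gave the authors 1 list of peaks from both replicates of a population, without mitochondrial or blacklisted reads. Downsampling evens depth before calling, but the number and borders of peaks still depend on how strongly reads concentrate. The deposited signal is the area of a peak, the deposited score (not used) is that area divided by length, up to a maximum, and the deposited −log10 p-value belongs to the summit. The summit offset was used as deposited. Read counts and depth were not analysed here, and GFP- peaks had areas of at least 200.

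Genes came from GENCODE M21, where genes on chromosome Y were left out, and sequence from RefSeq GRCm38.p6. Peaks overlapping by at least 1 bp (bedtools 2.31.1) were shared. A shared locus took, in each list, the highest-ranked peak among its promoter peaks and their overlapping partners. Calculations used Python 3.11.15, numpy 2.4.6, pandas 2.3.3, scipy 1.17.1, statsmodels 0.14.6 and matplotlib 3.10.9, and the overlap and selection steps were tested on simulated peaks. With 1 list for each population no test was possible. Named genes were those with a symbol other than a clone name and the 8 highest by area of each unshared class. Added to these were the 6 largest rank differences in each direction and the 5 highest mean ranks, both among shared genes. Unshared genes whose neighbour is in a gene sheet of the study's supplement on unspliced transcripts were named too. The members, gene lists and words were chosen with earlier results of these data known. Alternatives changed the overlap, area limit, ranking measure, distance limits, gene type and transcript starts. Columns of other samples numbered 0. A few items that the rules above would name are not reported here.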

Additional observations from a re-analysis of the deposited data

How the results depend on the processing

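No paired analysis was possible because each deposited list pools both replicates of its population, and for the same reason no replicate could be left out. Requiring a 50% reciprocal overlap raised the unshared share to 39.3% of GFP- and 26.2% of GFP+ lincRNA promoter peaks, beside 39.3% and 26.3% of all peaks, and turned the rank difference of *2610037D02Rik* to 25.2, of *AC122252.3* to -28.7 and of *Gm29824* to 8.37, because the longer peak then no longer counted as a partner and took rank 0. Keeping the upper 50% of peaks by area left 501 GFP- and 406 GFP+ peaks and a median difference of -1.39 over shared genes. Taking all long noncoding gene types gave 1453 and 1247 peaks. Ranking by the summit p-value, limits of 500 or 2000 bp to the 5′ end, a protein-coding limit of 5000 bp and the starts of all lincRNA transcripts left the shares and the median difference of -2.37 within their intervals. Ranking by the summit p-value moved the rank difference of *Lncenc1* from -53.3 to -29.9, of *AC163347.1* from 74.2 to 50.9 and of *Gm48397* from -26.9 to -5.00. Alternatives added after seeing the data barred all transcripts of protein-coding genes, barred RefSeq mRNA starts (35 peaks in each list) or joined the interval of both lists' peaks. Barring these starts left the shares and the median difference within their intervals. Joining the interval gave a median difference of -2.30, also within its interval. It moved the rank difference of *2610037D02Rik* to -0.0168, of *AC122252.3* to 26.7 and of *Gm29824* to -13.4. The precision of all values is limited by 1 list for each population, and an absent peak says only that none was called there.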
